A study of Mus musculus with 30 samples.

Results

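The Arp2/3 complex subunit genes were followed here in ATAC-seq data, which measure how readily a transposase reaches DNA at each position of the genome. The members were the 9 genes Actr2, Actr3, Arpc1a, Arpc1b, Arpc2, Arpc3, Arpc4, Arpc5 and Arpc5l. A window, meaning a peak region with its read count in each library, belonged to a member when the nearest protein-coding transcription start site (TSS) within 50 kb was that gene's. This rule took 127 of 305931 windows in the 24 h table and 129 of 369846 windows in the 4 h table. A window between genes was given to a gene by distance alone, and windows of 1 gene share a locus and are not replicates of each other.

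The Arp2/3 complex binds the side of an actin filament and starts a daughter filament there, which makes branched actin networks at the leading edge of cells, around endosomes and in the nucleus. Actr2 and Actr3 encode Arp2 and Arp3, which together mimic the end of a filament. The other subunits form the scaffold that holds them (Arpc2 and Arpc4), take part in binding its activators (Arpc1a or Arpc1b), bridge to Arp3 (Arpc3) and tether Arp2 (Arpc5 or its paralog Arpc5l). CK666 is a small molecule that locks the complex in its inactive shape, while cytochalasin D (CytoD) caps filament ends and stops polymerization.

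The libraries came from mouse mesenchymal stem cells (MSC) grown from bone marrow and from NIH3T3, an embryonic fibroblast line. MSC were taken 24 h after no treatment, CK666 or CytoD, and both cell types 4 h after no treatment or CK666, with 3 libraries in each of the 7 groups and 50000 cells per library. All are labelled as male C57BL/6J without a genetic change, the NIH3T3 libraries included, and the study's methods give MSC from the marrow of several mice and NIH3T3 from a cell bank. Nothing says that the 3 libraries of a group were separate cultures, so the tests measure the spread between these libraries, which may be technical. The 24 h and 4 h windows were called separately, so a window of one table can cover other bases than its counterpart. Counts in windows summed to between 14071301 and 22352180 per library at 24 h and between 14496058 and 34979833 at 4 h. At TSS windows, the platelet-derived growth factor receptor genes Pdgfra and Pdgfrb were open in MSC at 18.6 and 22.4 CPM per kb (counts scaled to library size and divided by window length), and Cxcl12 and Vcam1 lower, at 4.42 and 2.68 in the same 24 h controls. Both receptor genes were open in NIH3T3 too, at 13.6 and 10.3 in 4 h controls beside 20.3 and 16.2 in MSC. The 5 fibroblast markers had a median of 23.2 in 4 h control MSC and 28.9 in control NIH3T3. The 6 MSC markers with a TSS window had 5.695 and 4.755. Of the 9 MSC markers, Thy1 and Lepr had a TSS window at 4 h alone, at 0.048 and 0.371 CPM per kb in control MSC beside 4.98 and 1.08 in control NIH3T3, and Ly6a, Eng and Nt5e had none in either table. Of blood cell markers, Cd68, Csf1r and Adgre1 had a TSS window, at 1.37 to 6.27 CPM per kb in control libraries, and Ptprc, Itgam, Spi1 and Cd3e had none.

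Of the 9 members, 8 have an entry among the RefSeq promoter sequences (build GRCm38.p6, 250 bases before to 50 bases after the start). Their 100 bases around the start site are shown because 5 of them share a match to the ETS factor motif CCGGAAGT there. Each runs 5′ to 3′ on the gene's strand with the start site after base 50. Capitals mark CCGGAAGT or the SP/KLF motif GGGCGG on either strand, and no match of one overlaps a match of the other.
Actr2: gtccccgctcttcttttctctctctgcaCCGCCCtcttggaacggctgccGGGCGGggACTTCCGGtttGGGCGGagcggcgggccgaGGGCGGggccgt
Actr3: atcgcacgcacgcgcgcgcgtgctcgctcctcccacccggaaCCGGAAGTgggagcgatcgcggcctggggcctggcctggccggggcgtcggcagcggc
Arpc1a: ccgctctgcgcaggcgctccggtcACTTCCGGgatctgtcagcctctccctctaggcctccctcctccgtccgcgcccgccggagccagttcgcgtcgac
Arpc3: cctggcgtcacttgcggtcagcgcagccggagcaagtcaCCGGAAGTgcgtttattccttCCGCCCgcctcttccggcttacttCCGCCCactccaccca
Arpc4: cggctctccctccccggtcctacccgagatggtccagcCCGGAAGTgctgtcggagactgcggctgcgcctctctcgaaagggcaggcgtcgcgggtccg
Arpc1b: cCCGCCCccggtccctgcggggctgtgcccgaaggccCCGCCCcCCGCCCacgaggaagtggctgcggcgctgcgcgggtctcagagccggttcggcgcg
Arpc2: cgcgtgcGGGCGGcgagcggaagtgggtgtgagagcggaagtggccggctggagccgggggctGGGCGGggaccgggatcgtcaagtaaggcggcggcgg
Arpc5: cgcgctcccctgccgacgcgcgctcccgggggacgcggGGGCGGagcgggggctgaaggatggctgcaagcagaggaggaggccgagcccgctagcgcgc
They lie at chr11:20112902-20113001 (minus strand), chr1:125435678-125435777 (minus strand), chr5:145083819-145083918, chr5:122391828-122391927, chr6:113378063-113378162, chr5:145114206-145114305, chr1:74236467-74236566 and chr1:152766492-152766591 (plus strand), in that order. Over the whole promoter, CCGGAAGT was present in 5 of 8 member promoters, in Actr2, Actr3, Arpc1a, Arpc3 and Arpc4, against 3.89% of all 32851 promoters. GGGCGG was present in 6 of 8 (35.7% of all promoters), CCAAT in 2 (37.4%), GGAATG of TEAD factors in 1 (14.7%) and CGCATGCG of NRF1 in 2, Actr3 and Arpc2 (1.87%). The CArG box of SRF, a factor controlled by actin through its MRTF coactivators, matched in Arpc4 alone (1.63% of all promoters). No member promoter held TGACTCA or TGAGTCA of AP-1 (5.2%), TGACGTCA (1.79%) or AAGATGGCG of YY1 (1.4%). A match describes these letters and not a bound site.

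Accessibility of the promoters differed widely between the genes. The TSS window nearest the gene's 5′ end served as its promoter, and its level was divided by window length. Actr3 had by far the most accessible of the 9 promoters, at 200 ± 4.78 CPM per kb in 24 h control MSC, 222 ± 0.905 in 4 h control MSC and 189 ± 26.8 in 4 h control NIH3T3 (SD, n = 3 each). This was above 99.8%, 99.8% and 99.9% of all TSS windows. Its window is short, 519 bp at 24 h, while that of Arpc1b spans 3997 bp, which bears on a level per kb. Actr2 followed at 28.1 ± 2.25 in 24 h control MSC (window of 1146 bp) and 77.5 ± 2.21 in 4 h control MSC (528 bp). Because these widths differ, the 2 levels do not measure a change between the times. The order of the genes is likewise one of levels per kb, which rests on the window widths, and it can differ in CPM not divided by length.
Arpc3 had the lowest level in every control group, at 4.2 ± 0.265, 9.67 ± 1.59 and 7.34 ± 0.793 CPM per kb. In 4 h control MSC the order from the highest was Actr3, Actr2, Arpc5l (45.3), Arpc1a (35.5), Arpc4 (29.1), Arpc5 (26.7), Arpc2 (15.9), Arpc1b (10.9) and Arpc3, and only the libraries of Arpc4 and Arpc5 and those of Arpc1b and Arpc3 overlapped between neighbours. In 24 h control MSC the libraries of Arpc4 and Arpc2, of Arpc2 and Arpc5l and of Arpc5 and Arpc1a overlapped. In 4 h control NIH3T3 Arpc1a (55.6) stood second, its libraries overlapping those of Actr2 (54.7).

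**Figure D1:**
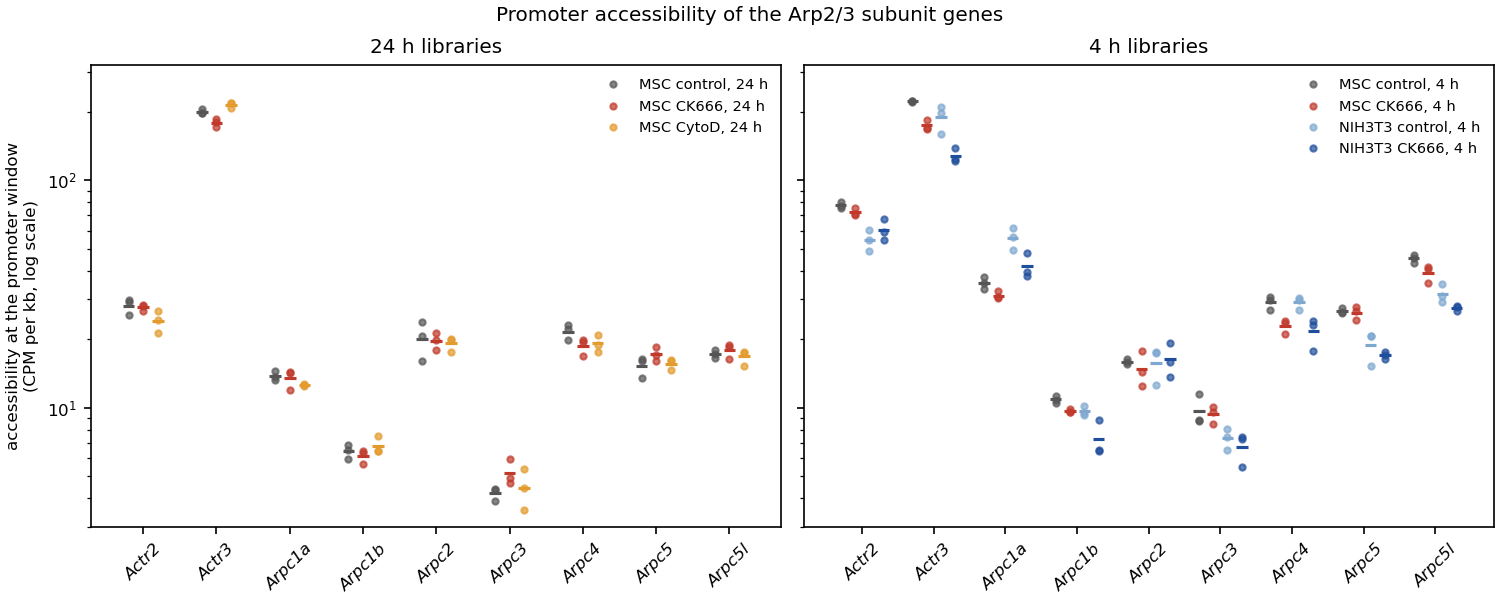
Accessibility of the promoter window of each subunit gene in CPM per kb on a log axis, for the 24 h libraries (left) and the 4 h libraries (right). Points are libraries and short lines are means of 3. Actr3 is highest and Arpc3 lowest in every group.

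Over the 21 libraries, the mean profile of the 9 promoters (log2 CPM, centred within each table) was most like that of Ubfd1 and Ears2 (Pearson r = 0.948 each), Dcbld2 (0.946), Dut (0.945) and Acot9 (0.944), out of 12858 other genes. The members themselves ranged from r = 0.865 for Actr3 to -0.051 for Arpc1a with that mean. These values are descriptions, since the points share depth, batch and cell type.

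At 24 h, few windows of the subunit genes were called with CK666. Among the 12 TSS windows 1 was higher (against 5.18% of all TSS windows) and 0 lower (against 3.29%). By DESeq2 0 were higher and 1 lower, the main Actr3 promoter. Of 126 member windows tested, 2 passed the study's limits (adjusted p under 0.01 with a change larger than 1 on the log2 scale in either direction), which is 1.59%, against 2.94% of all windows. At an adjusted p under 0.05 with any fold, 4 were higher (3.17%, against 4.9% of all windows) and 4 lower (3.17%, against 4.6%). The shares of members called were thus no larger than those of all windows. Adjusted p values come from edgeR (quasi-likelihood fit, with the Benjamini-Hochberg method over every window tested).
The 2 windows past the limits lie in introns of Arpc5l and Arpc5, the pair of paralogs of which 1 enters each complex.

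The Arpc5l window lies in an intron at chr2:39010586-39011704 in the 24 h table, 2510 bp from the nearest annotated start, and at chr2:39011138-39012093 in the 4 h table. It is shown because it gained accessibility with CK666 in all 3 comparisons of CK666 with control. The sequence is the 300 bases around the middle of the overlap of both windows, plus strand, chr2:39011271-39011570 (GRCm38), with capitals on matches to GGAATG of TEAD factors and CCAAT of NFY on either strand.
Arpc5l intron: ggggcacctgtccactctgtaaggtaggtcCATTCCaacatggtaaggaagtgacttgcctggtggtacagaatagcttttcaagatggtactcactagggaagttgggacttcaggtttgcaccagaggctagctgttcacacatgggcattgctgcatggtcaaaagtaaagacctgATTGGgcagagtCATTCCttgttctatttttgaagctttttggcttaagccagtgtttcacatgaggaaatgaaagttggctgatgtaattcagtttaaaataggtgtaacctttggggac
At 24 h the window held 3.36, 1.75 and 2.07 CPM in the control libraries and 12.7, 12.5 and 12.1 CPM with CK666. All CK666 libraries were above all controls, and the level rose 5.37-fold (log2 fold change 2.43 ± 0.191 SE, adjusted p = 8.19e-18 by edgeR). With CytoD it held 1.37, 2.03 and 2.86 CPM, within the range of the controls apart from 1 lower library. The log2 difference of CytoD from control was -0.11, with an interval of 2 SE from -0.58 to 0.37.
CK666 exceeded CytoD directly by 2.53 ± 0.196 on the log2 scale (adjusted p = 4.05e-18 by edgeR).
At 4 h the window held 0.52, 1.4 and 1.56 CPM in control MSC and 5.8, 5.65 and 5.31 with CK666, a rise of 2.26 ± 0.2 on the log2 scale (adjusted p = 3.53e-15 by edgeR). In NIH3T3 it held 0.799, 1.3 and 0.907 CPM in controls and 4.62, 5.92 and 5.32 with CK666, a rise of 2.39 ± 0.231 (adjusted p = 1.98e-12 by edgeR).
The groups did not overlap in either cell type. The difference between the responses of the cell types was 0.10 on the log2 scale, with an interval of 2 SE from -0.57 to 0.76.
The Arpc5l promoter beside it did not pass the test at 24 h (log2 fold change 0.05 ± 0.0794). Of all 369846 windows of the 4 h table, 21.3% hold GGAATG and 34.2% hold CCAAT in their middle 300 bases.

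The Arpc5 window moved the other way. It lies in an intron 1470 bp from the start, at chr1:152768012-152768576 in the 24 h table and chr1:152768012-152768538 in the 4 h table, and is shown because it lost accessibility in all 4 comparisons of a treatment with control. The 300 bases are chr1:152768144-152768443 (GRCm38, plus strand), with capitals on the CCAAT matches.
Arpc5 intron: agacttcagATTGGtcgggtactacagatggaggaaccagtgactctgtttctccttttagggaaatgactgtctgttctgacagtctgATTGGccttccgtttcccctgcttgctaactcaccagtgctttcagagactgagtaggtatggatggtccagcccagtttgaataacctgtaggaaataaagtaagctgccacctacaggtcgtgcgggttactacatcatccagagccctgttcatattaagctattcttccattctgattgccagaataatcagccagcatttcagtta
At 24 h it held 10.7, 10.3 and 11.8 CPM in controls, 4.04, 4.08 and 4.82 with CK666 and 6.17, 6.74 and 6.11 with CytoD. The 3 groups did not overlap. CK666 fell by 1.34 on the log2 scale (SE 0.153, adjusted p = 5.59e-11 by edgeR) and CytoD fell by 0.79 (SE 0.15, adjusted p = 5.96e-05 by edgeR).
CK666 was below CytoD by a log2 difference of -0.56 ± 0.163 (adjusted p = 0.0136 by edgeR), a call that was lost without CK666 replicate 1 or 2 or CytoD replicate 2.
At 4 h, control MSC held 16.5, 14.8 and 13.3 CPM against 9.54, 10.1 and 9.56 with CK666 (log2 fold change -0.61 ± 0.0932, adjusted p = 8.2e-07 by edgeR). Control NIH3T3 held 18.7, 16 and 17.6 CPM against 10.3, 9.66 and 8 with CK666 (-0.91 ± 0.139, adjusted p = 1.11e-06 by edgeR).
Each treated group lay below its controls. The promoter of Arpc5 itself did not pass the test in any of these comparisons, with log2 fold changes from -0.13 to 0.16; at 24 h its window is shared with Rgl1.

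**Figure D2:**
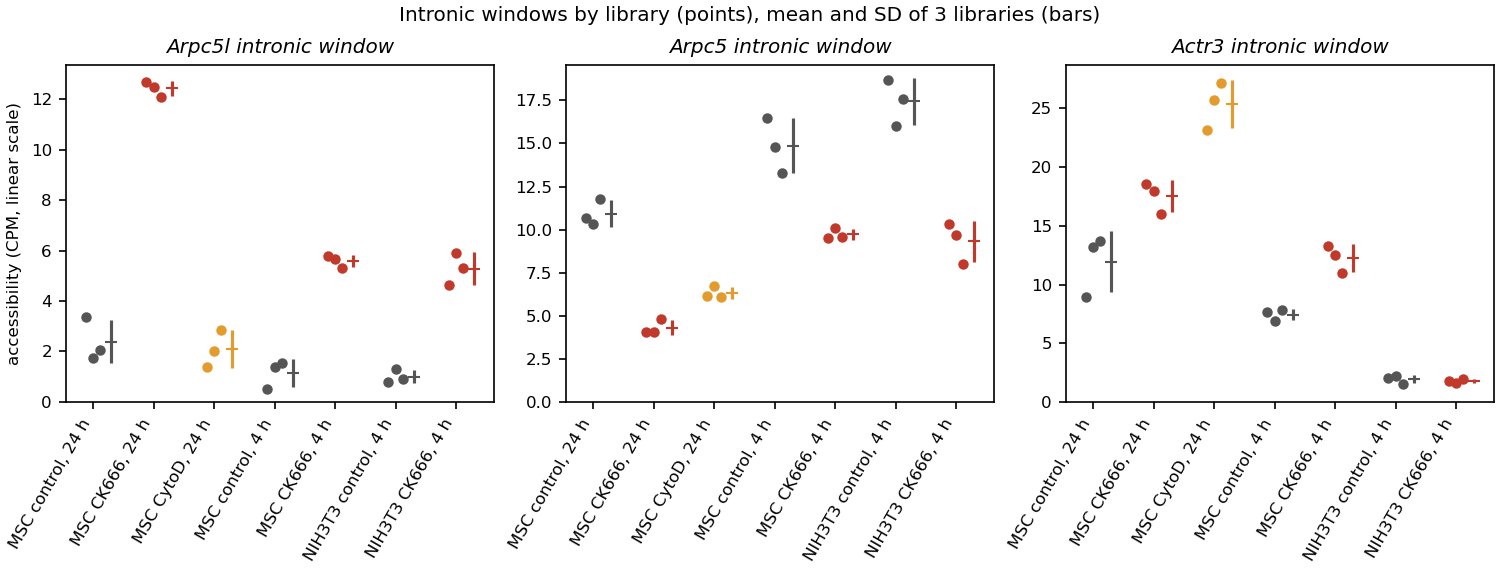
Accessibility in CPM (linear axis from 0) of intronic windows of Arpc5l, Arpc5 and Actr3 in every library (points), with mean and SD of 3 libraries beside them. Grey is control, red CK666 and orange CytoD. The Arpc5l window is high in the CK666 groups alone, while the Arpc5 window is lower in every treated group.

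Actr3, which encodes Arp3, also held a window that rose with both inhibitors in MSC. It lies in an intron 14282 bp from the start, at chr1:125419846-125420364 in the 24 h table. The 300 bases chr1:125419955-125420254 (GRCm38, plus strand) hold no match to the motifs searched and are shown because both inhibitors moved this window.
Actr3 intron: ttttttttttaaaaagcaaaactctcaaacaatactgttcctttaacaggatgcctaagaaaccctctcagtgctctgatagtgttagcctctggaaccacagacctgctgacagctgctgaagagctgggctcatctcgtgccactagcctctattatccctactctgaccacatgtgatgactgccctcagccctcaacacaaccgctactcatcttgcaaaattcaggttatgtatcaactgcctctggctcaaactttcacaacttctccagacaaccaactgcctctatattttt
It held 8.96, 13.2 and 13.7 CPM in 24 h controls, 18.6, 18 and 16 with CK666 and 23.2, 25.7 and 27.2 with CytoD. The 3 groups were in this order without overlap. The log2 fold change was 0.53 ± 0.113 with CK666 (adjusted p = 0.000307 by edgeR) and 1.07 ± 0.111 with CytoD (adjusted p = 3.66e-12 by edgeR), and CK666 was below CytoD by -0.54 ± 0.107 (adjusted p = 0.000108 by edgeR).
In 4 h MSC the corresponding window held 7.62, 6.89 and 7.82 CPM in controls and 13.3, 12.5 and 11 with CK666 (0.72 ± 0.103, adjusted p = 1.19e-07 by edgeR).
In NIH3T3 it held 1.54 to 2.2 CPM in controls and 1.64 to 1.97 with CK666, with overlap. The log2 difference between the cell types' responses was -0.83 ± 0.255 (adjusted p = 0.0404 by edgeR), and this call was lost when any of 7 of the 12 libraries was left out: MSC CK666 replicates 1 and 2, each MSC control and NIH3T3 control replicates 1 and 2.

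The other 24 h calls with CK666 were under 1 in size on the log2 scale. An intronic window of Actr2 (chr11:20106798-20107498) held 3.43, 3.67 and 3.8 CPM in controls and 2.02, 1.59 and 2.33 with CK666 (-0.88 ± 0.251, adjusted p = 0.0117 by edgeR), a call lost without CK666 replicate 2. A second TSS window of Actr3 (chr1:125431804-125435149) had a log2 difference of 0.36 ± 0.115 (adjusted p = 0.0315 by edgeR), and left the call without any of 5 single libraries: CK666 replicates 1 and 3, CytoD replicate 3 and control replicates 1 and 2. In an intron of Pdap1, 3995 bp from the nearest Arpc1b start, the window chr5:145130753-145135299 fell by 0.59 on the log2 scale (SE 0.147, adjusted p = 0.00305 by edgeR). Upstream of Actr3, chr1:125454994-125455614 had a log2 difference of -0.67 ± 0.203 and chr1:125457980-125459634 one of 0.38 ± 0.114 (adjusted p = 0.0206 and 0.0201 by edgeR), both lost without CK666 replicate 1 or 3 or control replicate 1 or 2. The number of higher windows fell from 4 to 2 without CK666 replicate 1 or control replicate 1 or 2, and under DESeq2. The main Actr3 promoter held 103, 107 and 102 CPM in controls and 93.7, 88.7 and 96.4 with CK666. These groups did not overlap, but the log2 fold change of -0.16 ± 0.0628 did not pass (adjusted p = 0.0941 by edgeR). It passed as lower with DESeq2, with total counts and with scaling within GC bins, but not with RLE factors, no count filter or the replicate block, at -0.16 to -0.19 over these 6 settings. The median log2 fold change over the 12 member TSS windows was -0.04, beside 0.03 over all TSS windows.

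With CytoD at 24 h, which acts on filament ends rather than on the complex, few member windows were called too. The limits were passed by 2 of 126 (1.59%, against 2.38% of all windows), 3 were higher (2.38%, against 3.68%) and 4 lower (3.17%, against 6.2%) at an adjusted p under 0.05. Beside the Actr3 intron, the second was a window upstream of Actr3 at chr1:125450097-125451418, which held 5.25, 7.58 and 7.42 CPM in controls and 4.11, 3.08 and 2.91 with CytoD (-1.03 ± 0.186, adjusted p = 2.23e-05 by edgeR). With CK666 it held 6.86, 6.42 and 8.1 CPM, overlapping the controls, and CK666 was above CytoD by 1.09 ± 0.185 (adjusted p = 4.31e-06 by edgeR). The 12 TSS windows had a median of 0.03 with CytoD, beside -0.07 over all TSS windows, but the sign of the member median was not stable: it ran from -0.06 to 0.07 when 1 library was left out and was -0.01 within GC bins and 0.10 with total counts. None of the 12 passed the test by edgeR or DESeq2 (2.15% of all TSS windows were higher and 8.64% lower), with 0 higher and 2 lower at an unadjusted p under 0.05. With total counts 1 was higher, and within GC bins 1 was lower. The count past the limits fell to 0 without CytoD replicate 3 and to 1 without any 1 of the control replicates. The higher count became 1 without CytoD replicate 1 or control replicate 2 and 5 without control replicate 1, and the lower count became 2 without CytoD replicate 1 or control replicate 3.
In the direct comparison of CK666 with CytoD, 4 of 126 member windows passed the limits (3.17%, against 3.28% of all windows), 5 were higher with CK666 (3.97%, against 7.34%) and 4 lower (3.17%, against 4.24%). Of these 4 past the limits, an Arpc1b window inside the neighbouring gene Arpc1a (chr5:145102602-145103148) held 4.84, 3.94 and 4.13 CPM with CK666 and 2.19, 2.29 and 1.82 with CytoD (1.04 ± 0.235, adjusted p = 0.000734 by edgeR). An Actr3 intron window at chr1:125395334-125396271 held 2.12, 2.63 and 1.85 CPM with CK666 and 4.46, 4.65 and 4.63 with CytoD (-1.05 ± 0.229, adjusted p = 0.000442 by edgeR). The number past the limits was 2 without CK666 replicate 3 or CytoD replicate 3. The Actr3 promoter was lower with CK666 than with CytoD, by -0.26 ± 0.0629 (adjusted p = 0.00147 by edgeR). CK666 and CytoD were compared with the same control libraries.

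At 4 h, the promoters of Actr3 and Arpc4 were called lower with CK666 in both cell types, and other promoters in 1 cell type alone. In NIH3T3 the Arpc4 call was lost without any of 4 single libraries. In MSC, 14 of 121 member windows were lower at an adjusted p under 0.05 (11.6%, against 3.81% of all windows) and 4 higher (3.31%, against 3.56%). Past the limits were 3 (2.48%, against 1.02%), or 1 without MSC control replicate 3. Among TSS windows 3 of 11 were lower (27.3%, against 6.97% of all TSS windows) and 0 higher by edgeR or DESeq2, also at an unadjusted p under 0.05.
In NIH3T3, 20 of 124 member windows were lower (16.1%, against 7.26%) and 3 higher (2.42%, against 5.89%; 1 by DESeq2, or without NIH3T3 CK666 replicate 1 or control replicate 1), and 5 passed the limits (4.03%, against 3.54%). Of 11 TSS windows 5 were lower (45.5%, against 9.23% of all TSS windows). NIH3T3 libraries with CK666 were shallower than their controls, at 14496058 to 23146416 against 24368857 to 27866363 counts. Spearman correlations between replicates were 0.75 to 0.82 with CK666 and 0.85 to 0.86 in controls. In 4 h MSC the CK666 libraries were deeper, at 31634170 to 34979833 against 29239381 to 30017192 counts. An effect of depth on the calls was not tested.
The shares of lower windows were above those of all windows in both cell types. Member windows of the 4 h table held a TSS more often than all windows (8.53% against 4.47%) and were longer (median 633 against 589 bp). An effect of this on the shares was not tested.
The median over the 11 TSS windows was -0.11 in MSC (all TSS windows -0.03) and -0.18 in NIH3T3 (all TSS windows 0.00), or -0.07 in NIH3T3 with total counts, under which 5 were lower and 1 higher. Without any of 4 single libraries (NIH3T3 CK666 replicates 1 and 3, NIH3T3 control replicates 1 and 3) 2 TSS windows remained called in NIH3T3, and these were the 2 of Actr3 each time. A fit with the replicate number as a block also called 2.

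Actr3 had the clearest promoter change. Its promoter (chr1:125435306-125435823) held 105, 105 and 107 CPM in control MSC and 86.4, 79.9 and 80.6 with CK666, and fell by 0.36 on the log2 scale (SE 0.0474, adjusted p = 1.33e-08 by edgeR). In NIH3T3 it held 120, 91.9 and 114 CPM in controls and 72.9, 79.9 and 71.4 with CK666, a fall of 0.54 (SE 0.119, adjusted p = 0.000804 by edgeR). Treated and control libraries did not overlap in either cell type, and the difference between the cell types did not pass (log2 -0.21 ± 0.127, adjusted p = 0.403 by edgeR). Its second TSS window (chr1:125429012-125435045) fell in NIH3T3, from 27.4, 25.8 and 25.6 to 15, 20.3 and 18.4 CPM (-0.55 ± 0.128, adjusted p = 0.0017 by edgeR). In MSC that window overlapped between the groups, at 18.7 to 22.2 against 18.2 to 22 CPM.
The Arpc4 promoter, a window shared with Tada3, held 50, 51.8 and 45.5 CPM in control MSC and 39.2, 40.2 and 35.7 with CK666 (-0.36 ± 0.0597, adjusted p = 6.42e-06 by edgeR). In NIH3T3 it held 60, 55.1 and 62 CPM in controls and 37.3, 49.1 and 47.8 with CK666 (-0.40 ± 0.122, adjusted p = 0.0195 by edgeR).
Both drops were without overlap. In NIH3T3 the Arpc4 call was lost without any of the 4 libraries named above, as were those of the Arpc1a and Arpc1b promoters. The Arpc1a promoter, a window shared with Kpna7, went from 35.1, 31 and 38.3 to 24.3, 30.2 and 25.1 CPM (-0.39 ± 0.125, adjusted p = 0.0273 by edgeR). The Arpc1b promoter went from 31.7, 29.5 and 28.9 to 20.7, 27.7 and 20.6 CPM (-0.38 ± 0.127, adjusted p = 0.0339 by edgeR).
In MSC the Arpc5l promoter went from 44.2, 42.8 and 40.7 to 38.5, 38.2 and 33.5 CPM (-0.21 ± 0.0612, adjusted p = 0.0166 by edgeR), a call lost without MSC CK666 replicate 3 or MSC control replicate 1 or 2.
Promoters of Actr2, Arpc2, Arpc3 and Arpc5 did not pass in either cell type. The Actr2 promoter held 35.3, 28.8 and 31.9 CPM in control NIH3T3 and 32.9, 39.8 and 35.2 with CK666, and the Arpc2 promoter 21.8, 16 and 22 against 20.5, 24.5 and 17.5, both with overlap.

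**Figure D3:**
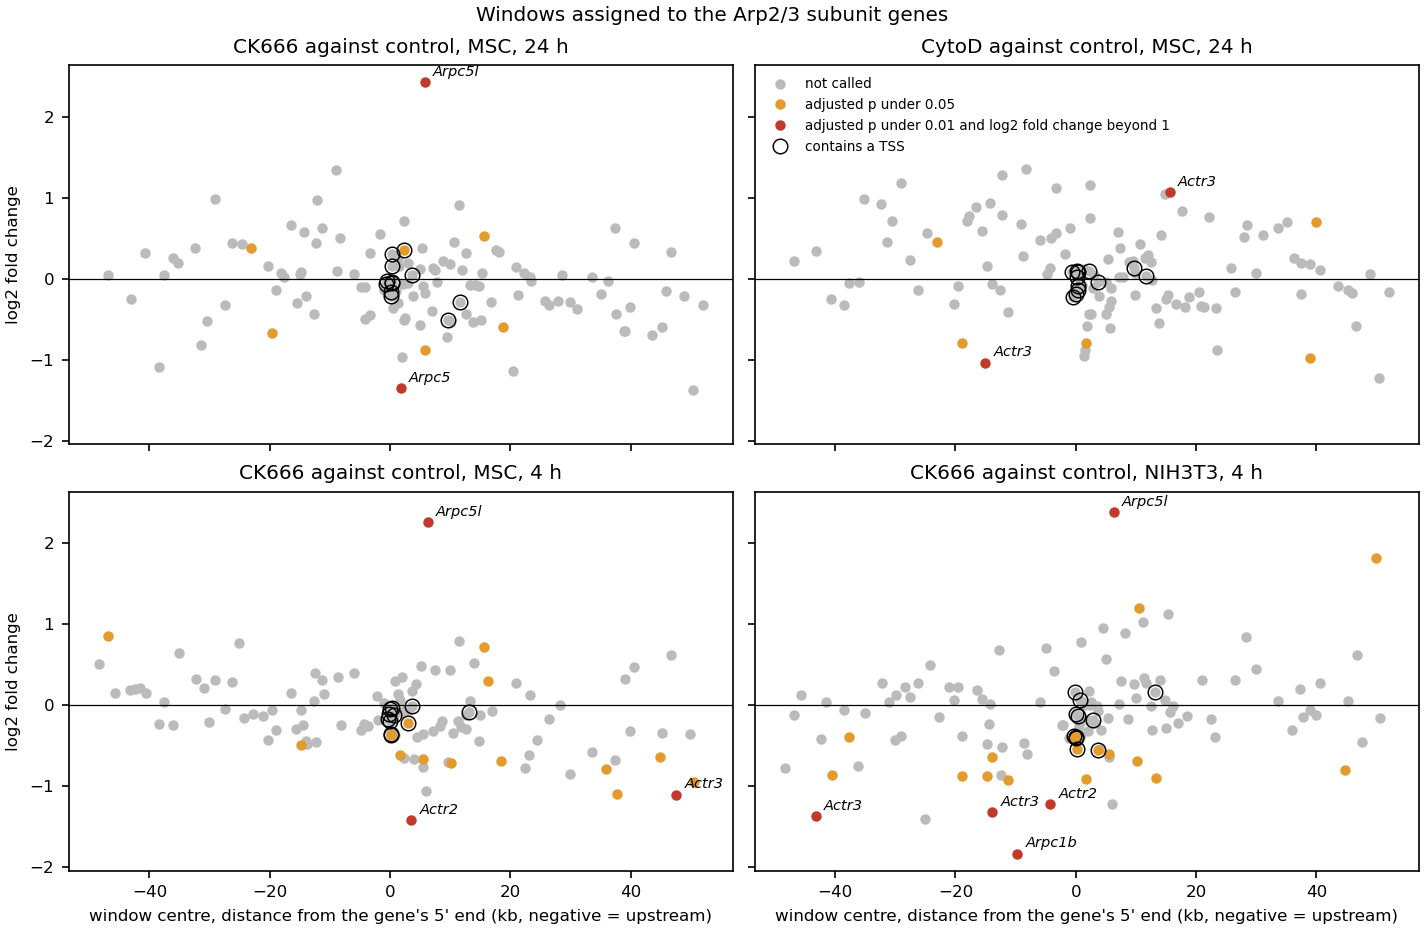
Log2 fold change of every member window against the distance of its centre from the gene's 5′ end in kb, for the 4 comparisons of a treatment with control. Colours give the call, black rings mark windows that contain a TSS and names mark windows past the study's limits. The Arpc5l window stands apart upward in the 3 CK666 panels, and most orange points lie below 0 at 4 h.

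Away from TSS windows, Actr3 had 8 of the 15 calls in MSC (53.3%, against 42.7% of the member windows tested there) and 7 of the 18 in NIH3T3 (38.9%, against 42.5%). In MSC the windows past its 3′ end at chr1:125383547-125386744, chr1:125386890-125389507 and chr1:125389624-125392226 fell by 0.94, 1.10 and 0.64 on the log2 scale, with the middle one going from 5.55, 5.22 and 6.91 to 2.8, 2.84 and 2.58 CPM (adjusted p = 6.58e-08 by edgeR). In NIH3T3 the third of them fell from 15.5, 13 and 14.8 to 8.19, 8.16 and 8.55 CPM (-0.79 ± 0.14, adjusted p = 2.26e-05 by edgeR). These windows lie 42420 to 47902 bp from the Actr3 start, outside the gene, and were assigned by distance alone.
Upstream of Actr3, a window at chr1:125450179-125450952 was lower with CK666 in both cell types and is shown because it also fell with CytoD at 24 h. The 300 bases chr1:125450608-125450907 (GRCm38, plus strand) lie inside it but are the middle of the overlapping 24 h window. Capitals mark GGAATG and CCAAT matches.
Actr3 upstream window: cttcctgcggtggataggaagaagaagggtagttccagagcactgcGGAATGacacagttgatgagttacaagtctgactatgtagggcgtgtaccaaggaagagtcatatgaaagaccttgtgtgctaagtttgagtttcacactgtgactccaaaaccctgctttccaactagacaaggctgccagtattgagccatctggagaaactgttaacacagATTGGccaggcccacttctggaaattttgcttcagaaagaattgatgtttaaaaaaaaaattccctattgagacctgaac
In MSC it went from 10.4, 10.3 and 12.5 to 7.25, 8.63 and 7.7 CPM (-0.49 ± 0.105, adjusted p = 0.000608 by edgeR) and in NIH3T3 from 93.1, 80.6 and 89 to 42.2, 54 and 46.5 CPM (-0.88 ± 0.121, adjusted p = 8.81e-08 by edgeR). No library of one group reached the other. Its neighbour at chr1:125449296-125449885 fell in NIH3T3 from 4.35, 3.06 and 4.22 to 1.89, 1 and 1.8 CPM (-1.32 ± 0.239, adjusted p = 3.58e-05 by edgeR).

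Farther upstream, at 42928 bp, chr1:125478655-125479203 differed between the cell types. The 300 bases chr1:125478779-125479078 (GRCm38, plus strand) are shown for that reason, with capitals on the TEAD, AP-1 and SP/KLF motif matches on either strand. TGACTCA or TGAGTCA is present in 22.1% of all window middles of the 4 h table.
Actr3 far upstream window: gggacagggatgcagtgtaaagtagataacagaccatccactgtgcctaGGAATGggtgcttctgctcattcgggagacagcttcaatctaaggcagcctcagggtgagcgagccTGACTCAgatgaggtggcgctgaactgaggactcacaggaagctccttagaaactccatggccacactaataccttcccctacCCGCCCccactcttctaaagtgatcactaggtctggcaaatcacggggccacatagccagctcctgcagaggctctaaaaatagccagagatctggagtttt
In NIH3T3 it held 21.6, 14.8 and 20.3 CPM in controls and 5.53, 7.79 and 8.38 with CK666, a fall of 1.37 on the log2 scale (SE 0.15, adjusted p = 1.35e-10 by edgeR). In MSC it was near closed, at 1.21, 2.01 and 1.91 CPM in controls and 1.77, 1.86 and 2.2 with CK666. The difference of the responses was -1.57 ± 0.257 (adjusted p = 1.36e-05 by edgeR).
The window at chr1:125475868-125476747 also fell in NIH3T3, from 18.8, 14.6 and 18.9 to 7.54, 11.5 and 9.59 CPM (-0.85 ± 0.144, adjusted p = 9.02e-06 by edgeR), where MSC held 6.86 to 8.23 CPM in controls and 8.38 to 8.88 with CK666. At chr1:125481908-125483372 MSC rose, from 3.33, 3.04 and 4.17 to 5.9, 6.53 and 6.61 CPM (0.86 ± 0.143, adjusted p = 6.71e-06 by edgeR), and NIH3T3 did not pass, at 3.43 to 3.77 CPM in controls and 3.1 to 3.51 with CK666.

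Across all members, 8 of 129 windows differed between the cell types in their response (adjusted p under 0.05). All 8 were lower in NIH3T3 relative to MSC (6.2%, against 2.91% of all windows) and 0 higher by edgeR or DESeq2 (1.76% of all windows, and 8 member windows at an unadjusted p under 0.05). Past the limits were 4 (3.1%, against 1.4%), or 2 without NIH3T3 control replicate 1. The count of 8 fell to 5 without MSC CK666 replicate 2, MSC control replicate 1 or 2 or NIH3T3 control replicate 1. Of the 8, 6 belong to Actr3, which holds 50 of the 129 windows. Away from TSS windows, Actr3 had 5 of the 7 calls (71.4%, against 40.7% of the member windows tested there).
The other 2 lie at Arpc1b and Arpc2. The Arpc1b window at chr5:145102608-145103197, in an intron of Arpc1a, held 11.8, 12.1 and 12.1 CPM in control NIH3T3 and 5.14, 6.74 and 6.96 with CK666, while MSC held 3.95, 3.14 and 2.36 against 4.35, 3.98 and 3.38. Its responses differed by -1.25 ± 0.228 (adjusted p = 0.000118 by edgeR). The 300 bases chr5:145102728-145103027 (GRCm38, plus strand) are shown because this window, like the far upstream Actr3 window, was more open in NIH3T3 and holds TGACTCA. Capitals mark it and a CCAAT match. Other Actr3 windows were also more open in NIH3T3 and lower there with CK666. Of these, chr1:125475868-125476747 holds TGACTCA in the 300 bases searched. Those at chr1:125449296-125449885 and chr1:125450179-125450952 hold neither TGACTCA nor TGAGTCA there. For the second, the bases searched are the middle of the overlapping 24 h window, so part of the middle of the 4 h window was not searched.
Arpc1b upstream window: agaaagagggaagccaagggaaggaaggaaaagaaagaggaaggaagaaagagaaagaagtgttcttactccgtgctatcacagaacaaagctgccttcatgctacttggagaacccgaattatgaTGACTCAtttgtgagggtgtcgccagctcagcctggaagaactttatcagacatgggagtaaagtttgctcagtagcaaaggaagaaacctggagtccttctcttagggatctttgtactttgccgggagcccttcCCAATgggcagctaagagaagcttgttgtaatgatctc
The Arpc2 window at chr1:74248748-74250090, in an intron of that gene, held 13.6, 12.9 and 12.2 CPM in control NIH3T3 and 7.8, 6.43 and 6.66 with CK666. In MSC it held 13.8, 12.9 and 11 against 15.5, 11.7 and 11.9, with overlap. Its responses differed by -0.98 ± 0.184 (adjusted p = 0.000168 by edgeR).
Among the remaining NIH3T3 calls, an Arpc1b window in a coding exon of Arpc1a (chr5:145104201-145104723) went from 1.95, 1.84 and 1.18 to 0.13, 0.501 and 0.67 CPM (-1.83 ± 0.394, adjusted p = 0.000552 by edgeR). A window upstream of Actr2 (chr11:20116492-20117921) went from 1.69, 1.87 and 1.85 to 0.455, 0.866 and 0.922 CPM (-1.22 ± 0.33, adjusted p = 0.00711 by edgeR).
An Actr2 intron window (chr11:20106755-20108136) fell in both cell types, from 10.1, 10.3 and 10.9 to 6.25, 6.85 and 6.61 CPM in MSC (-0.66 ± 0.108, adjusted p = 3.76e-06 by edgeR) and from 22.1, 23 and 23.7 to 13.3, 16.3 and 15.7 CPM in NIH3T3 (-0.60 ± 0.129, adjusted p = 0.000589 by edgeR). This window covers the Actr2 window that was lower with CK666 at 24 h.

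**Figure D4:**
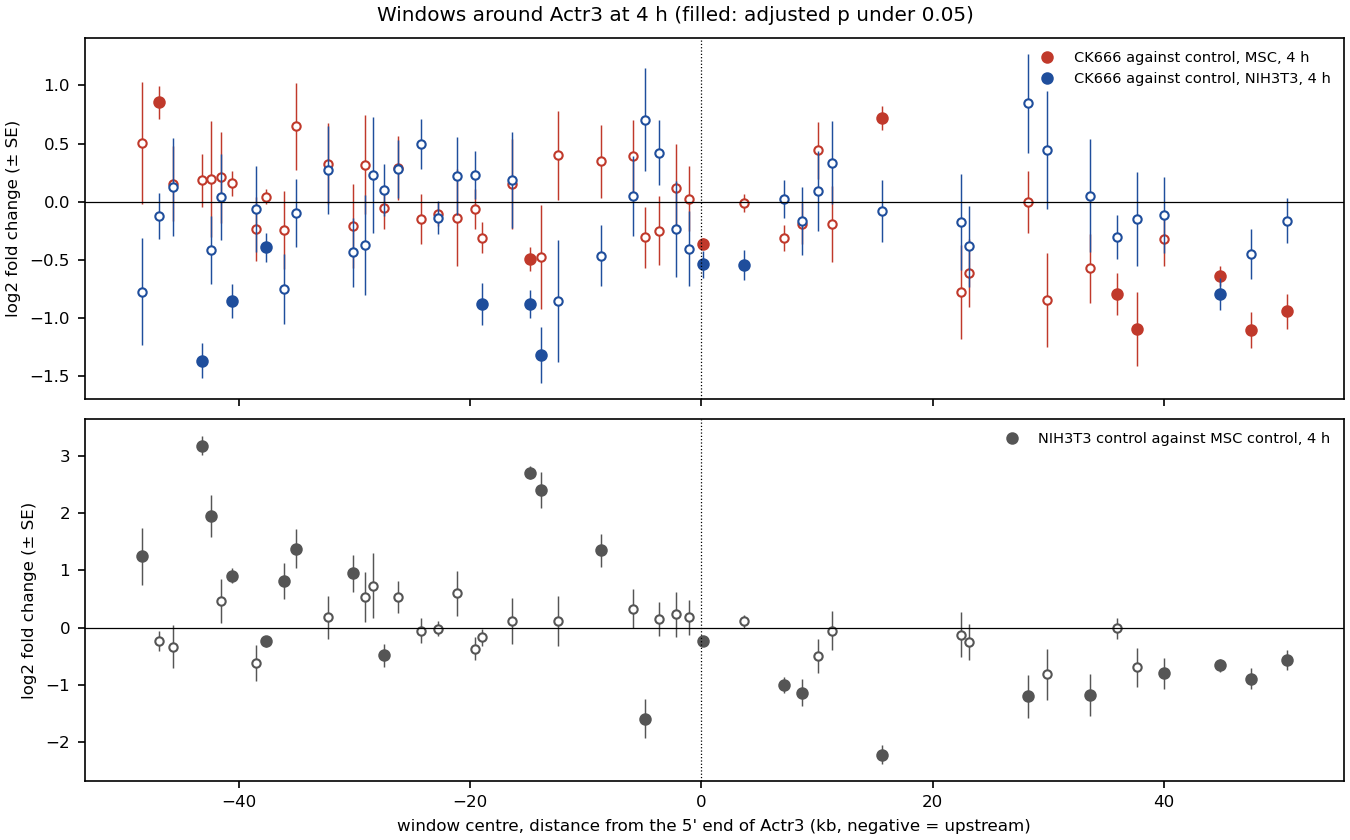
Log2 fold change with its SE for the windows of Actr3 at 4 h against distance from the 5′ end in kb, for CK666 in MSC (red) and NIH3T3 (blue) above and for the controls of both cell types below. Filled points have an adjusted p under 0.05. Filled blue points lie below 0 and mostly upstream, and most filled red points below 0 lie toward the right edge.

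Untreated, the cell types differed at many member windows, though at no larger share than elsewhere. Between control NIH3T3 and control MSC at 4 h, 25 of 129 windows passed the limits (19.4%, against 34.5% of all windows), 20 were higher in NIH3T3 (15.5%, against 24.9%) and 34 lower (26.4%, against 28.0%). The far upstream Actr3 window was 9.12-fold more accessible in NIH3T3 (log2 3.19 ± 0.173, adjusted p = 1.28e-28 by edgeR) and the nearer one at chr1:125450179-125450952 6.56-fold (2.71 ± 0.11, adjusted p = 9.99e-37 by edgeR). The Actr3 intron window was lower in NIH3T3, by -2.23 ± 0.17 (adjusted p = 3.86e-20 by edgeR), as was an Actr2 intron window at chr11:20086179-20086737, by -2.91 ± 0.219 (adjusted p = 1.99e-20 by edgeR). Of 11 TSS windows, Arpc1a's was higher in NIH3T3 (0.65 ± 0.107, adjusted p = 2.45e-07 by edgeR; 14.5% of all TSS windows were higher and 49.5% lower) and those of Actr2, Actr3, Arpc3, Arpc5 and Arpc5l were lower, by -0.23 to -0.52 on the log2 scale. The 5 lower became 3 under DESeq2, RLE factors, total counts, GC bins or no count filter, and the 1 higher became 3 with total counts or GC bins. The calls of Actr3 and Arpc3 were lost under DESeq2, RLE factors, total counts and no count filter, and those of Actr3 and Arpc5 within GC bins. The Actr3 call was also lost without NIH3T3 CK666 replicate 3, NIH3T3 control replicate 2 or any 1 MSC control, and that of Arpc3 without MSC control replicate 2, NIH3T3 CK666 replicate 3 or NIH3T3 control replicate 1 or 3. The median of all 11, -0.17, stands beside -0.32 over all TSS windows under this scaling, and became 0.06 with total counts and 0.12 with scaling within GC bins, so the direction for promoters as a group depends on the scaling.

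Summed over all its windows, a gene gives one value per library. A window shared by 2 genes counted in full for each. The sums of Arpc4 and Arpc1a thus include the promoter windows shared with Tada3 and Kpna7, and that of Arpc5 at 24 h the one shared with Rgl1. With CK666 at 4 h, 5 of 9 members were lower in MSC (55.6%, against 18.4% of all genes called in either direction) and 5 of 9 in NIH3T3 (55.6%, against 42.1%), with none higher. In MSC these were Actr2, Actr3, Arpc1a, Arpc4 and Arpc5, by log2 fold changes of -0.18 to -0.35, and in NIH3T3 Actr3, Arpc1a, Arpc1b, Arpc4 and Arpc5, by -0.22 to -0.53. Actr3 fell by 30.7% in NIH3T3 (-0.53 ± 0.0485, adjusted p = 7.87e-10 by edgeR) and by 13.3% in MSC (-0.21 ± 0.0378, adjusted p = 1.68e-05 by edgeR), and the responses differed by -0.32 ± 0.0647 (adjusted p = 0.000219 by edgeR). The interaction called 2 of 9 members (22.2%, against 28.2% of all genes), Actr3 and Arpc1b, the latter at -0.18 ± 0.0674 (adjusted p = 0.0417 by edgeR) and lost without any of 7 libraries: MSC CK666 replicates 2 and 3, MSC control replicates 1 and 3, NIH3T3 CK666 replicates 1 and 3 and NIH3T3 control replicate 3. The MSC call of Arpc1a was lost without MSC CK666 replicate 2 or MSC control replicate 1.
At 24 h CK666 called 3 of 9 (33.3%, against 21.5% of all genes): Arpc5l was higher (0.25 ± 0.0601, adjusted p = 0.00191 by edgeR), and Arpc4 (-0.25 ± 0.0704, adjusted p = 0.00768 by edgeR) and Actr2 (-0.18 ± 0.055, adjusted p = 0.017 by edgeR) lower. CytoD called 2 of 9 (22.2%, against 27.3%), Actr3 higher at 0.19 and Actr2 lower at -0.18. Each Actr2 call was lost without control replicate 2 or 3, or without replicate 1 of its own treatment. Between CK666 and CytoD 3 of 9 differed (33.3%, against 31.3%), with Arpc5l higher and Actr3 and Arpc1b lower in CK666. The Arpc1b call was lost without CK666 replicate 2 or 3 or CytoD replicate 1, and that of Arpc5l without CytoD replicate 3. Between the untreated cell types 6 of 9 differed (66.7%, against 72.8%), with Actr3, Arpc1a, Arpc1b and Arpc4 higher in NIH3T3 and Actr2 and Arpc5l lower. That of Actr2 was lost without MSC control replicate 1 or 3 or NIH3T3 control replicate 1 or 3.

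**Figure D5:**
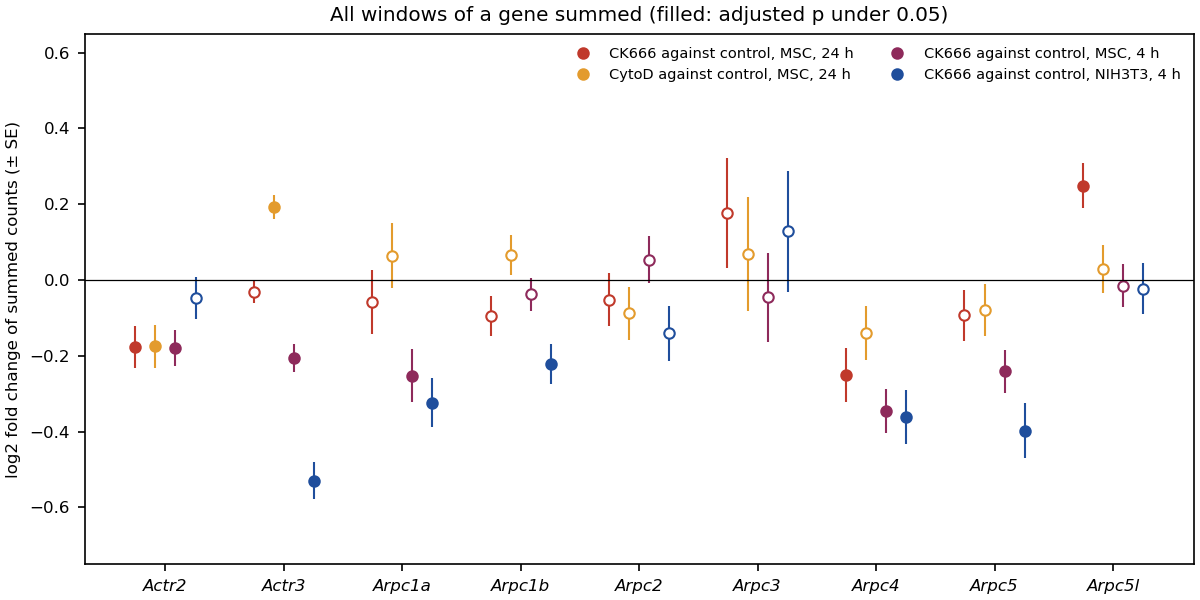
Log2 fold change with SE of the counts summed over all windows of each subunit gene, for the 4 comparisons of a treatment with control. Filled points have an adjusted p under 0.05. At 4 h (purple MSC, blue NIH3T3) all filled points are below 0, and Actr3 in NIH3T3 is lowest at -0.53.

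The genes that act with the complex were counted on summed windows beside the share of all genes called. Of 22 genes of nucleation promoting factors, the activators of the complex such as the WAVE and WASP families, 2 were higher and 4 lower with CK666 in 4 h MSC (27.3%, against 18.4% of all genes) and 1 higher and 7 lower in NIH3T3 (36.4%, against 42.1%). At 24 h, 1 was higher and 4 lower with CK666 (22.7%, against 21.5%) and 2 higher and 7 lower with CytoD (40.9%, against 27.3%). Hcls1, a cortactin relative, had the TSS window of this list past the limits at 24 h, higher with CK666 by 1.37 ± 0.158 on the log2 scale (adjusted p = 9.18e-11 by edgeR).
Of 11 genes of inhibitors and debranching proteins, 5 were higher and 2 lower in NIH3T3 (63.6%, against 42.1%) and 1 higher and 3 lower in MSC at 4 h (36.4%, against 18.4%). At 24 h 0 were higher and 2 lower with either inhibitor (18.2%, against 21.5% with CK666 and 27.3% with CytoD). The TSS window of Coro2b, a coronin, rose in NIH3T3 by 1.80 ± 0.487 (adjusted p = 0.00708 by edgeR).
Of 6 conventional actin genes, 1 was higher and 2 lower in 4 h MSC (3 of 6, against 18.4% of all genes), where the promoter of Acta2, smooth muscle actin, fell by 1.07 on the log2 scale (SE 0.0947, adjusted p = 3.96e-15 by edgeR), and 1 higher and 3 lower in NIH3T3 (66.7%, against 42.1%). At 24 h, 5 of them were tested, with 0 higher and 1 lower with CK666 and 1 higher and 2 lower with CytoD. Of 8 other actin-related protein genes, 0 were higher and 1 lower in MSC at 4 h (12.5%, against 18.4%). In NIH3T3 1 was higher and 3 lower (4 of 8, against 42.1% of all genes). At 24 h 1 was higher and 0 lower with CK666 (12.5%, against 21.5%), and 2 were higher and 3 lower with CytoD (62.5%, against 27.3%). These lists hold few genes, so 1 gene moves a share by several points.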

How the data were processed

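The authors aligned paired-end Omni-ATAC reads with bowtie2 in the PEPATAC pipeline, used MACS2 for peaks, and merged the peaks of replicates into windows. They deposited raw read counts per window and library in 2 tables, with no normalization. The sources used here give neither versions nor read filters, so their effect on the counts is unknown. The build is mm10 per the labels, the same assembly as GRCm38, and starts were read as counted from 0 and printed from 1. Of protein-coding start sites (GENCODE vM21), 60.7% and 59.7% lay in a window, against 15.7% and 14.95% after a shift of 20000 bp.

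Here windows passing edgeR's default filterByExpr were fitted with edgeR 4.0.16 (TMM scaling, quasi-likelihood test, Benjamini-Hochberg adjustment over all windows; R 4.3.3). The 24 h MSC groups shared 1 fit, each 4 h comparison used its 6 libraries, and the interaction and the untreated comparison used all 12. CPM are TMM-scaled, and for untreated cell types come from the fit of all 12. Genes were tested on the sum of their windows. The limits are those of the study, whose tool, DESeq2 (1.42.0), was an alternative. Intervals of differences are 2 SE. Depth ran from 14071301 to 34979833 counts per library. Named windows are all TSS windows and, per comparison, up to 12 called ones with the smallest adjusted p, and the sequences and a few windows beyond them were chosen after their values were seen. The 9 siRNA libraries were not used. One blood cell marker is not reported here. Scripts were tested on simulated data. There, an adjusted p under 0.05 by edgeR found 9 of 100 windows with a log2 change of 0.5 for CK666 at 24 h. It found 16 of 100 for 4 h MSC and 5 of 100 for NIH3T3. Of 100 windows with a log2 change of 2 it found 91, 83 and 86. A window that was not called may therefore have moved by a small amount.

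Members, lists and motifs were chosen with earlier results of these data known. Replicate numbers showed no pairing in these counts: deviations of same-numbered libraries correlated between -0.0729 and 0.0279. Whether same-numbered libraries were prepared together is not known. No pair of libraries agreed within sampling noise. Alternatives were DESeq2, RLE factors, total counts, TMM within 20 GC bins, no count filter, a replicate block, windows within 5 kb and leaving out each library.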

Additional observations from a re-analysis of the deposited data

Results flagged for a closer look

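The response to CK666 at 4 h differed between MSC and NIH3T3, by the interaction term in edgeR (Benjamini-Hochberg adjusted), at 8 member windows and 2 genes on summed windows. The 8 windows, all lower, were 6.2% of member windows, against 2.91% of all windows. The 2 genes were 22.2% of members, against 28.2% of all genes. Values are log2 differences, NIH3T3 response minus MSC response, with 3 libraries per group. At Actr3 these were -1.57 at chr1:125478655-125479203 (edgeR adjusted p = 1.36e-05), -1.03 at chr1:125475868-125476747 (edgeR adjusted p = 0.000118), -1.001 at chr1:125481908-125483372 (edgeR adjusted p = 0.00667), -0.83 at chr1:125419804-125420389 (edgeR adjusted p = 0.0404), -0.56 at chr1:125429012-125435045 (edgeR adjusted p = 0.0218) and -0.46 at chr1:125473109-125473632 (edgeR adjusted p = 0.0449).

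The Arpc1b window at chr5:145102608-145103197 gave -1.25 (edgeR adjusted p = 0.000118) and the Arpc2 window at chr1:74248748-74250090 gave -0.98 (edgeR adjusted p = 0.000168). On summed windows Actr3 gave -0.32 (edgeR adjusted p = 0.000219) and Arpc1b -0.18 (edgeR adjusted p = 0.0417). The windows at -0.56, -0.83 and -0.46 lost their call in 5, 7 and 8 of the 12 fits that left out 1 library, as did the Arpc1b sum in 7.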

How the results depend on the processing

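Counts are of member windows with an adjusted p under 0.05, medians are log2 fold changes over member TSS windows, and causes were not tested unless fewer windows or libraries entered. With windows within 5 kb, which are fewer, CK666 at 24 h gave 2 higher and 2 lower windows. CytoD gave 0 past the limits, 0 higher, 1 lower and 1 gene, and CK666 against CytoD 1 past the limits, 1 higher and 2 lower. CK666 at 4 h gave 2 higher and 7 lower in MSC, and 2 past the limits and 8 lower in NIH3T3. The interaction gave 0 past the limits, 1 lower and 1 gene, and the untreated cell types 4 past the limits, 3 higher and 14 lower, with the Actr2 sum at 0.01 (0.01421). With total counts, CytoD gave 1 past the limits, 5 higher and a median of 0.10 (0.1045), CK666 against CytoD 8 lower and -0.01 (-0.01271), NIH3T3 6 higher and -0.07 (-0.06955), the interaction 2 past the limits, 3 higher and 0.00332, and the untreated cell types 0.06 (0.06269), with Arpc4 at 0.225. Within GC bins, which had no gene-level fit, the median was -0.09 (-0.08644) for CK666 at 24 h and 0.121 between cell types, where the promoters of Arpc4, Arpc2 and Actr3 turned to 0.2845, 0.2714 and 0.05405. DESeq2 gave 2 higher windows for CK666 at 24 h and 1 in NIH3T3.

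Leaving out 1 library gave 2 to 5 higher windows for CK666 at 24 h. CytoD had 0 to 2 past the limits, 1 to 5 higher, 2 to 5 lower, medians of -0.06465 to 0.06703 and 1 to 3 genes. CK666 against CytoD had 2 to 4 past the limits and medians of 0.05045 to 0.1186. MSC at 4 h had 1 to 3 past the limits and medians of -0.1711 to -0.1021, and NIH3T3 1 to 3 higher. The interaction had 2 to 5 past the limits, 0 to 1 higher, 5 to 11 lower, medians of -0.2046 to -0.03294 and 1 to 2 genes. With the replicate number as a block, NIH3T3 had 16 lower windows in place of 20 and the interaction 6 in place of 8.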
